A study of Mus musculus and Homo sapiens with 12 samples.

Results

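Butyryl regions at the start sites of long noncoding RNA (lncRNA) genes were described in CCD841 cells. The CCD841 line was derived from normal human colon and is labelled as epithelial. The cells were treated with 1 mM sodium butyrate (NaBu) for 12 to 16 h by the sample labels, and this treatment was shared by every library used here, so no untreated cells and no other acyl mark stand beside the values. The methods of the study name only the shorter of these times for these cells. CUT&Tag, in which an antibody brings a transposase to chromatin that carries a mark so that the DNA around it is tagged and sequenced, was performed for butyrylation of histone H3 lysine 18 (H3K18bu) and of histone H4 lysine 12 (H4K12bu), with 2 replicates of each. Peaks were called by the authors separately for every library. There were 299720 and 299691 peaks in the lists of the H3K18bu replicates, and 299445 and 299296 in those of H4K12bu. The labels do not say whether the replicates were separate cultures, so their spread may be technical.

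All peaks of the 4 lists were merged into 547275 regions (build hg38, as in the deposited lists), and the 160182 regions with a peak in both replicates of H3K18bu, in both of H4K12bu or in both replicates of both marks were kept, which was 29.3% of the merged regions. A kept region counted as lying at an lncRNA start when it overlapped the 1 kb on either side of the 5′ end of a GENCODE 44 gene of type lncRNA, and it was left out when it also overlapped such a window of a protein-coding gene. By this rule 3643 regions, 2.27% of the kept regions, lay at lncRNA starts. They were found at 3347 of the 18866 lncRNA genes, which is 17.7% of these genes. A further 1292 kept regions lay at both an lncRNA start and a protein-coding start. They were left out of the 3643 regions. They are counted among the 6791 regions at protein-coding starts in the comparisons below. The choice rests on the peaks themselves, so what follows describes these regions and does not test them.

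lncRNAs are transcripts that are not translated into protein. Some act as scaffolds of nuclear bodies, some hold small RNAs that are cut out of them, and some are read from the opposite strand of a coding gene or from an enhancer. Their promoters are often weaker and poorer in CpG dinucleotides than those of coding genes. Butyryl groups are attached to lysines of the histone tails, at some of the same lysines that carry acetyl groups, and butyrate is made in large amounts by bacteria of the colon.

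The summit windows of 6 named regions show the range of sequence under the peaks, from CpG-rich promoters to a window with few CpG dinucleotides and no motif searched here. Each window is 300 bp of hg38 centred on the summit of the strongest peak of its region and is written 5′ to 3′ on the strand of the lncRNA. Capitals mark matches on either strand to the letters of 6 short motifs. TGANTCA is the core that AP-1 factors bind, and its matches read the same on both strands up to the middle base. GGGCGG is the core of SP and KLF factors. CCAAT is the box of the factor NF-Y. CCGGAA is a core of ETS factors, and GGAATG is that of TEAD factors. TATAAA is the TATA box. Matches to different motifs may share bases, and none did in the windows shown. MALAT1 lies at chr11:65497615-65497914 on the plus strand, DANCR at chr4:52712092-52712391 on the plus strand, SNHG15 at chr7:44986486-44986785 on the minus strand, MIR31HG at chr9:21559832-21560131 on the minus strand, CYTOR at chr2:87455172-87455471 on the plus strand and LINC00460 at chr13:106373923-106374222 on the plus strand.
MALAT1: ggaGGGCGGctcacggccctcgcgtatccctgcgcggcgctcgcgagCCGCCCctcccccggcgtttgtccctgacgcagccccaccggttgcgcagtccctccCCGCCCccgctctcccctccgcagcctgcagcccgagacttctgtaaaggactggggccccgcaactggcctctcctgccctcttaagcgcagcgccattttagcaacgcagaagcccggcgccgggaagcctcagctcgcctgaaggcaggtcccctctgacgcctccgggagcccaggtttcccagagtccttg
DANCR: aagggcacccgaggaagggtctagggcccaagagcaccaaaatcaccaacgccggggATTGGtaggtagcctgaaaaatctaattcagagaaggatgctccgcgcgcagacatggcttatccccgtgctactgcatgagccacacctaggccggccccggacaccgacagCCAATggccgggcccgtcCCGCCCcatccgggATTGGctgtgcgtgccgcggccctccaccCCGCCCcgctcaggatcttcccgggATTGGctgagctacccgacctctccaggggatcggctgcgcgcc
SNHG15: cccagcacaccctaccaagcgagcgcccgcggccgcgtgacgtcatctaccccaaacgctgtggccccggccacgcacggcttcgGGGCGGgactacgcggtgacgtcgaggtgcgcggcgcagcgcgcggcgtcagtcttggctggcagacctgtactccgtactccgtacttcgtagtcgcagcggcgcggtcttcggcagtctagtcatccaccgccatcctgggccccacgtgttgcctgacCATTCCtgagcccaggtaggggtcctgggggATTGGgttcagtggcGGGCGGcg
MIR31HG: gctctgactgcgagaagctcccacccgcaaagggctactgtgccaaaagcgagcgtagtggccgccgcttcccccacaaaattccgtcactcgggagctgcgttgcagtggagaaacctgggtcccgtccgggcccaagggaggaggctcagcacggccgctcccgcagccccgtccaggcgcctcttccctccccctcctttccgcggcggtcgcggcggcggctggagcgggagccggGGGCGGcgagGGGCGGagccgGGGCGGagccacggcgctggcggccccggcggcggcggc
CYTOR: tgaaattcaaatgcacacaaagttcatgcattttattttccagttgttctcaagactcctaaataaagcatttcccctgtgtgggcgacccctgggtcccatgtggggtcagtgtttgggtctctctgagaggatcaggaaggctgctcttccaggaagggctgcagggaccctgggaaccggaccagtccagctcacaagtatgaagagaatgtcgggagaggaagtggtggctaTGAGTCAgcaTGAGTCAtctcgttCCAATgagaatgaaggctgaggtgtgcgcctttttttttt
LINC00460: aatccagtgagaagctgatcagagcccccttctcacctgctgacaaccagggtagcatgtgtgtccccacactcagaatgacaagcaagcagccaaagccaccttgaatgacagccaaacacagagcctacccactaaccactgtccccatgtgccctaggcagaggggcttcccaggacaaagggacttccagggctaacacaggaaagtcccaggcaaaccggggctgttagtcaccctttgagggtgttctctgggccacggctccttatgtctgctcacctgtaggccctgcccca

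The windows of MALAT1, DANCR, SNHG15 and MIR31HG held 29, 24, 37 and 37 CpG dinucleotides, and those of CYTOR and LINC00460 held 5 and 2. The summit at MALAT1 lay 125 bp after the start. Its matches, GGGCGG and then CCGCCC, the same letters on the other strand, began at -22, 22 and 79 bp from the start. DANCR carried 4 CCAAT matches, the one nearest to its start beginning 23 bp after it. MIR31HG carried 3 GGGCGG matches, the first beginning at the annotated start base itself. CYTOR carried TGAGTCA at -68 and again at -58 bp from its start. The CYTOR window is found without a mismatch at 1 other place in the genome, so reads from the copies cannot be told apart and the values of CYTOR are uncertain. A match is a run of letters only, and binding of a factor was not measured here.

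H3K18bu was the more frequent mark at lncRNA starts under the replicate rule. It alone passed the replicate rule in 1772 of the regions (48.6%), H4K12bu alone passed it in 894 (24.5%), and both marks passed in 977 (26.8%). By gene, 13.8% of the lncRNA genes had a region with H3K18bu, 9.46% one with H4K12bu and 5.32% one with both marks. At the 6791 regions at protein-coding starts, 4.24% of the kept regions, the same shares were 59.3%, 10.9% and 29.8%, and at the 149748 kept regions at neither kind of start they were 42.7%, 33.9% and 23.5%. The share with H4K12bu alone at lncRNA starts thus lay between that of the other groups. Passing the rule for 1 mark did not mean that the other mark was without peaks: 46.4% of the regions with H3K18bu alone had an H4K12bu peak in 1 replicate, and 36.2% of those with H4K12bu alone had an H3K18bu peak in 1 replicate. Leaving out a library loosens the rule for its mark, since 1 peak then suffices. Without H4K12bu replicate 1 there were 5985 regions at lncRNA starts, 3236 of them with H4K12bu alone and 1452 with H3K18bu alone. Without H4K12bu replicate 2 there were 2335 with H4K12bu alone, 1269 with H3K18bu alone and 1480 with both marks. The order of the marks thus turned round when either H4K12bu library was left out. Without H3K18bu replicate 1 or 2 there were 3546 or 3478 with H3K18bu alone. With the 100000 strongest peaks of each list, 810 regions had H3K18bu alone, 337 had H4K12bu alone and 300 had both marks.

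The comparison of the marks that does not use the replicate rule takes the regions of each library by itself. Of these, 2.25% and 2.14% lay at lncRNA starts and at no coding start in the H3K18bu replicates, and 1.88% and 1.68% did in the H4K12bu replicates. Both H3K18bu libraries were above both H4K12bu libraries, with means of 2.19% ± 0.078 and 1.78% ± 0.142 (SD, n = 2 each), a difference of 0.415 percentage points. A two-sided exact permutation test gave p = 0.333, the smallest value that 2 libraries against 2 can give. The direction was not particular to lncRNA starts. At protein-coding starts lay 4.25% and 4.61% of the regions of the H3K18bu replicates, and 2.78% and 2.19% of those of the H4K12bu replicates. That gap was wider and was not tested.

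The lists did not reach down to the same peak height. The pileup, the number of extended read ends stacked at a peak's summit, solved from the authors' fold and p, had a median of 15 and 12 over all peaks of the H3K18bu replicates and of 15 and 7 over those of the H4K12bu replicates. The lowest −log10 p in the lists was 5.31, 4.56, 4.81 and 2.97 in the same order, since each list was filled up to the authors' limit of 300000 peaks. The list of H4K12bu replicate 2 thus had the lowest pileups and reached the weakest peaks. An absent peak says only that none was listed, and a peak missing from H4K12bu replicate 2 is the least certain one.

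The peaks at lncRNA starts were of moderate height. The strongest peak of each region had a median fold over the local background of 4.65 and 4.47 in H3K18bu replicates 1 and 2, and of 4.32 and 3.65 in H4K12bu replicates 1 and 2. The median pileups were 18, 14, 16 and 8 read ends. A q below 0.05 was reached by 100.0% of the regions with a peak in the first 3 of these libraries and by 71.5% in H4K12bu replicate 2. Regions with both marks had higher medians than regions with 1 mark, 5.09 and 4.99 against 4.54 and 4.29 for the fold of H3K18bu, and 4.71 and 3.87 against 3.99 and 3.45 for that of H4K12bu. These classes were set by the same peaks, so the order is a description. It also held for H3K18bu at protein-coding starts (6.51 and 6.13 against 4.99 and 4.72). At neither kind of start it was 5.06 and 4.75 against 4.4 and 4.19 for H3K18bu, and 4.71 and 3.91 against 3.96 and 3.52 for H4K12bu. Over all regions at protein-coding starts the median folds were higher than at lncRNA starts, 5.31, 5.1, 4.71 and 3.82 in the same order of libraries. The median pileups there were lower, 15, 12, 13 and 7. Regions at neither kind of start had median folds of 4.58, 4.27, 4.25 and 3.65 and median pileups of 17, 13, 16 and 8, close to those at lncRNA starts. Between replicates the fold at lncRNA starts differed by a median ratio of 1.04 (quartiles 0.907 and 1.19) for H3K18bu and 1.17 (quartiles 1.0 and 1.38) for H4K12bu, replicate 1 over replicate 2. The summits of the replicates lay a median of 18 bp apart for H3K18bu and 56 bp apart for H4K12bu. Where both marks passed, the summits of H3K18bu and H4K12bu lay a median of 18 bp apart in the replicates numbered 1 and 88 bp apart in those numbered 2.

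The regions at lncRNA starts had a median width of 481 bp, with quartiles of 289 and 715 bp and a range from 73 to 2175 bp. Regions with both marks were wider, with a median of 690 bp, than those with H3K18bu alone (427 bp) or H4K12bu alone (413 bp). A region with more peaks to merge is wider by construction, and the same order held at protein-coding starts (647, 448 and 396 bp). The widest region, 2175 bp with H4K12bu alone, lay at LINC02604, and the next, 2126 and 2069 bp with both marks, lay at the lncRNAs ENSG00000254574 and ENSG00000229118, of which the latter has an identical copy of its summit window elsewhere.

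Butyryl regions were more frequent in the windows at lncRNA starts than in windows of the same width 10 kb away. The comparison takes the 14440 lncRNA genes whose start and the points 10 kb upstream and 10 kb downstream all lie over 2 kb from any protein-coding start. Of these, 20.9% had a region at the start, against 15.0% in the upstream window and 15.0% in the downstream window. For H3K18bu the shares were 16.4% at the start, 10.7% upstream and 10.9% downstream. For H4K12bu they were 11.1%, 8.91% and 8.7%. Of all 15530 lncRNA genes with a start over 2 kb from a coding start, 21.0% had a region. The windows away from the start were chosen after the peaks had been seen, and the difference was not tested. The larger part of the share at the start was thus also reached by windows away from the start of the gene. Among protein-coding genes 34.9% had a kept region at the start, 31.5% with H3K18bu and 15.3% with H4K12bu. These shares include regions shared with an lncRNA start. Counted in the same way, with shared regions, 24.2% of all lncRNA genes had a kept region at the start.

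**Figure D1:**
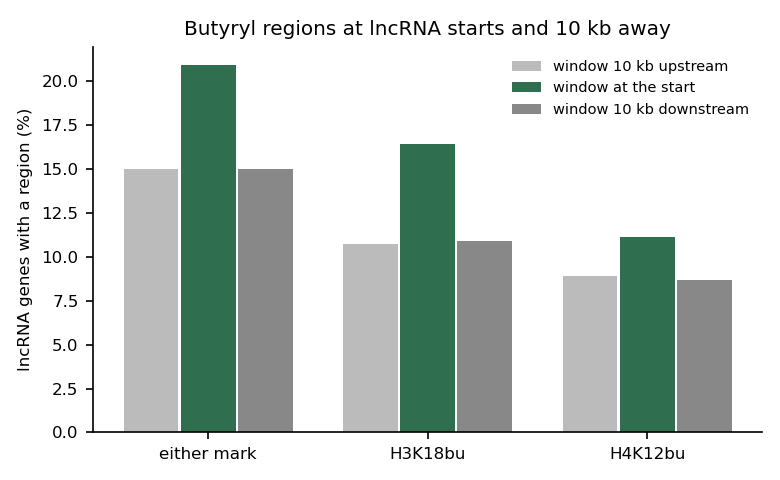
Percent of the 14440 lncRNA genes whose start and flanking points lie over 2 kb from a protein-coding start (y axis), with a kept butyryl region within 1 kb of the start or of points 10 kb upstream and downstream, for either mark, H3K18bu and H4K12bu. The bar at the start is the highest for each mark, 20.9% against 15.0% and 15.0% for either mark.

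Within the windows the summits gathered around the lncRNA start, but less than at coding genes. The median distance of the summit from the start was 336, 336, 362 and 386 bp in H3K18bu replicates 1 and 2 and H4K12bu replicates 1 and 2, against 163, 166, 146 and 181 bp at protein-coding starts. Summits within 200 bp of the start made up 33.8%, 33.9%, 32.5% and 30.3% of those within 1 kb, against 55.9%, 55.7%, 57.8% and 53.4% at protein-coding starts. The 100 bp just upstream of the start held the most summits in each library, 10.4% and 10.8% for H3K18bu and 9.37% and 9.28% for H4K12bu. The start base itself was covered by 33.7% of the regions, by 44.5% of those with both marks, 33.5% of those with H3K18bu alone and 22.1% of those with H4K12bu alone. At protein-coding starts 61.7% of the regions covered the start base. The start used is the 5′ end of the gene record, and many lncRNAs have other starts. At the edge of the window, RMDN2-AS1 was kept with a region 1000 bp from its start and LIMS1-AS1 was left out with a region at 1001 bp.

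**Figure D2:**
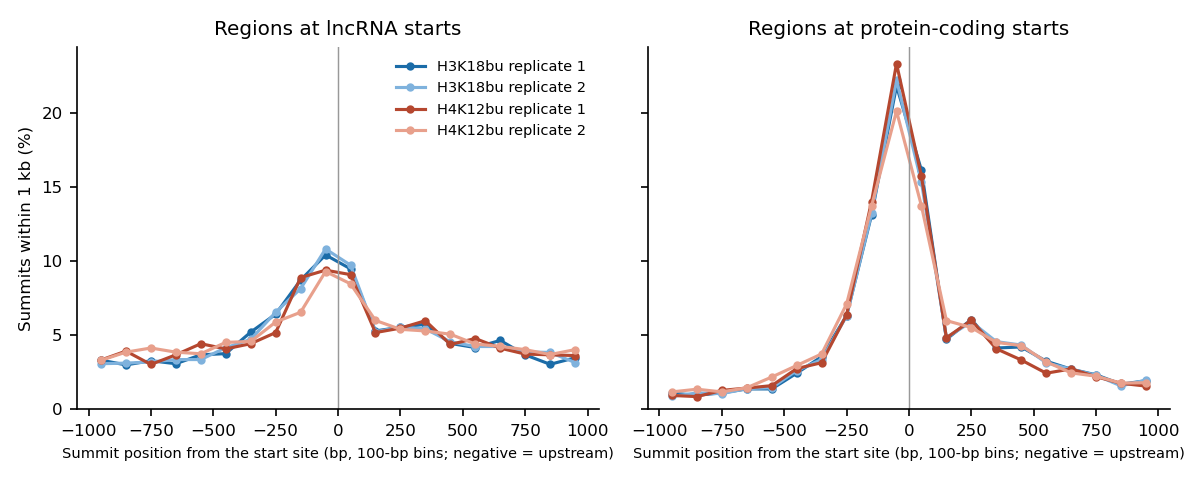
Position of the strongest summit of each region from the nearest start (x axis, bp in bins of 100 bp, negative upstream) as a percent of the summits within 1 kb (y axis), for the 4 libraries at lncRNA starts and at protein-coding starts. The highest bin lies just upstream of the start in both, near 10% at lncRNA starts and near 22% at protein-coding starts.

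Many of these starts lie inside coding genes, and the marks differed in this. Of the 3643 regions, 1602 (44%) lay in the body of a protein-coding gene, beside 63.6% of the regions at neither kind of start. Of the 15530 lncRNA genes over 2 kb from a coding start, 36% started in such a body, and a region was present at 24.3% of these and at 19.2% of the others. The host was read from the strand opposite to the lncRNA in 34.1%, from the same strand in 9.17%, and hosts on both strands were present in 0.686%. Among regions with H4K12bu alone 61.7% lay in a coding gene body, against 34.5% with H3K18bu alone and 44.9% with both marks. Regions at neither kind of start were split in the same order, 78.2%, 49.3% and 68.7%. At lncRNA starts a protein-coding gene's exon was overlapped by 26.6%, 13.1% and 17% in the same order, and by 17.5% of all regions. At neither kind of start these exon shares were lower, 20.2%, 6.48% and 10.6%, and 12.1% of all regions. The difference of 27.3 percentage points between H4K12bu alone and H3K18bu alone kept its direction in every alternative in which it was computed and ranged from 15.2, without H4K12bu replicate 1, to 31.8, with the 100000 strongest peaks of each list. Counted over the 15530 lncRNA genes with a start over 2 kb from a coding start, H4K12bu regions were found at 16.1% of the lncRNA starts inside a gene on the opposite strand, 15.0% inside a gene on the same strand and 8.78% outside coding gene bodies. The shares for H3K18bu were 17.6%, 13.2% and 16.3%. No test was run on these shares, since the lncRNA genes are not replicates.

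**Figure D3:**
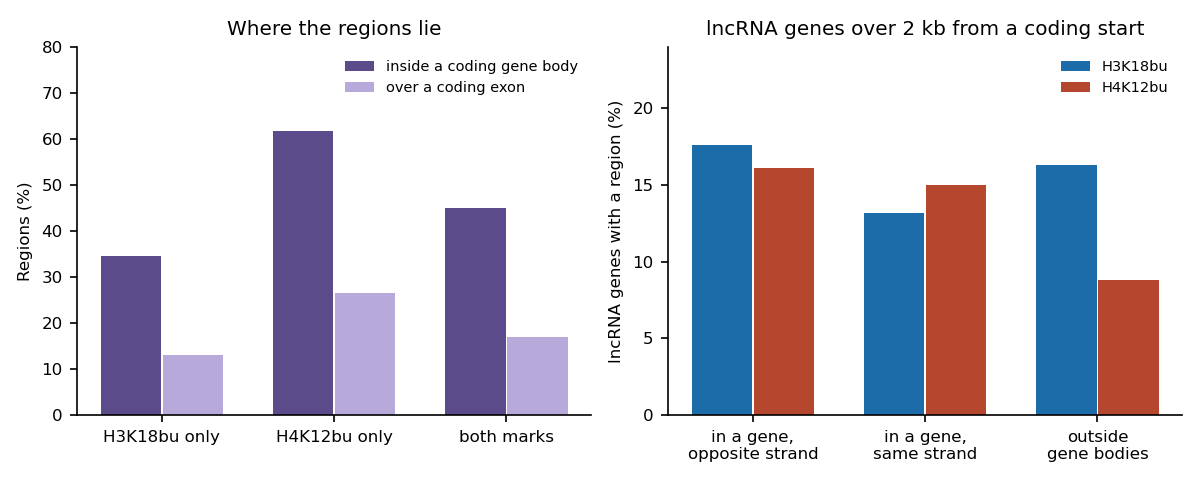
Left, percent of the regions at lncRNA starts (y axis) that lie inside a protein-coding gene body or over one of its exons, by mark. Right, percent of the lncRNA genes over 2 kb from a coding start (y axis) with an H3K18bu or an H4K12bu region at the start, by the place of that start; the H4K12bu bar falls from 16.1% in genes on the opposite strand to 8.78% outside gene bodies.

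The hosts were 1282 protein-coding genes, of which 985 held 1 such region, 226 held 2 and 71 held 3 or more. CDH4, which encodes a cadherin, held 6 in its 688357 bp, 4 of them with both marks and 2 with H3K18bu alone. LPIN2, which encodes a phosphatidate phosphatase, held 5, all with H4K12bu alone. The other hosts of 5 were LDLRAD4 (3 with both marks, 1 with H3K18bu alone and 1 with H4K12bu alone), NAV2 (2 with both marks and 3 with H3K18bu alone) and SIPA1L3 (1 with both marks, 1 with H3K18bu alone and 3 with H4K12bu alone). No other host held more than 4. Long genes have more room for lncRNA starts, and these hosts are named by their counts only. Outside and inside genes together, the nearest protein-coding start was 1 to 5 kb away in 9.0% of the regions, 5 to 50 kb in 46.0% and over 50 kb in 45.0%, with a median of 41400 bp. By gene, 25.1% of the lncRNAs whose start lies 5 to 50 kb from a coding start had a region, against 21.0% at 2 to 5 kb and 18% over 50 kb.

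The lncRNAs were also grouped by the ending of their symbol, which names their place or product. Of the 13109 genes without a symbol 2316 had a region, 17.7%, which is also the share of all lncRNA genes. Among genes over 2 kb from a coding start, a region was present at 314 of 1207 antisense (-AS) genes (26%), 40 of 122 intronic (-IT) genes (32.8%), 27 of 95 hosts of small RNAs (28.4%), 457 of 2182 LINC genes (20.9%) and 2266 of 11190 genes without a symbol (20.3%). H4K12bu was found at 24.6% of the intronic genes and at 9.03% of the LINC genes, and H3K18bu at 21.3% and 18.3%. Divergent transcripts (-DT) are named for starting beside a coding gene and running away from it, and 93.7% of the 589 lay within 2 kb of a coding start. Of the 37 that did not, 14 had a region (37.8%), the highest share of these classes in a small group, and 20 of the 589 had one. ITGB1-DT had one of the strongest regions, over its start, inside the integrin gene ITGB1 on the opposite strand and 46862 bp from the nearest coding start. One region overlapped the windows of at most 3 lncRNAs, and 178 regions overlapped those of 2 or more. Among the 178 were the regions of CYTOR (also at NCAL1), DANCR (LINC01618), MALAT1 (ENSG00000270117), LINC00941 (ENSG00000246331) and LNCTSI (ENSG00000289221). Such a region cannot be assigned to a single lncRNA. By gene, 2900 lncRNAs had 1 region, 409 had 2 and 38 had 3 or more, up to 4 at ENSG00000282012. Among the autosomes, between 14.6% of the lncRNA genes on chromosome 19 and 22.5% on chromosome 11 had a region. Of the 366 on chromosome X 9.02% had one, below that range. No lncRNA gene on chromosome Y had one, and those genes are counted in the 17.7% of all lncRNA genes.

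The DNA under these regions was richer in CpG dinucleotides than that under other kept regions and poorer than that at coding starts. In 300 bp at the strongest summit the median GC content was 55.3%, against 64.0% at protein-coding starts and 50.3% at regions at neither kind of start. The median observed over expected CpG ratio was 0.243, against 0.754 and 0.169. Windows were called CpG-rich when GC was over 50% and this ratio over 0.6, which took 14.5% of the windows at lncRNA starts, 65.5% at protein-coding starts and 1.53% at neither. At lncRNA starts the share was 19% with H3K18bu alone, 5.15% with H4K12bu alone and 14.8% with both marks. In the same order it was 67.1%, 37.8% and 72.3% at protein-coding starts, and 1.55%, 1.51% and 1.5% at neither. The medians at lncRNA starts lay close together in the same order. They were 0.239, 0.249 and 0.242 for the CpG ratio and 54.7%, 55.0% and 56.7% for GC. The marks thus differed in the share of CpG-rich windows and not in the typical window. Regions at lncRNA starts that covered the start base were CpG-rich in 26.8%, and those beside it in 8.2%.

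The motif letters were spread unevenly over the groups of windows. GGGCGG was present in 21.7% of the windows at lncRNA starts, 59.5% at protein-coding starts and 10.6% of all kept regions. CCGGAA was present in 7.49%, 20.4% and 3.99%, and CCAAT in 27.0%, 33% and 29.7%. TGANTCA was present in 13.5% of the windows at lncRNA starts and 13% of all kept regions, against 6.21% at protein-coding starts, and GGAATG in 17.9%, 18.3% and 12.0%. TATAAA was present in 8.43%, 11% and 4.14%. By mark, TGANTCA was present in 14.3% of the windows at lncRNA starts with H3K18bu alone, 7.16% with H4K12bu alone and 17.7% with both, and over all kept regions in 14.3%, 8.54% and 16.9%. In GC content, GGGCGG and CCGGAA the windows lay between the other groups, and in TGANTCA and GGAATG they lay close to the kept regions as a whole. These shares were not tested, and the part of base composition in them was not tested.

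**Figure D4:**
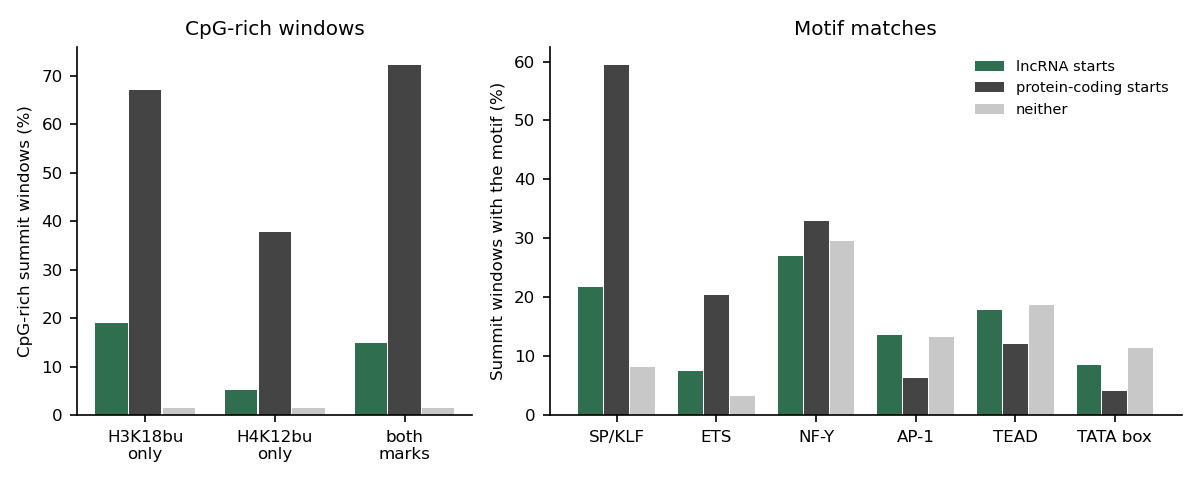
Left, percent of 300-bp summit windows that are CpG-rich (y axis), by mark, at lncRNA starts, protein-coding starts and neither. Right, percent of windows with each motif (y axis); at lncRNA starts 21.7% held the SP/KLF letters against 59.5% at protein-coding starts, and 13.5% held the AP-1 letters against 6.21%.

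Among lncRNAs known from colon cancer, 12 of the 23 found in the annotation had a region at the start, beside 17.7% of all lncRNA genes. The genes of this and the following lists were picked by name from general knowledge with earlier results of these data known, so the counts are descriptions. The region of CYTOR, a cytoplasmic lncRNA raised in many tumours, carried H3K18bu with −log10 p of 11.5 and 23.3 in replicates 1 and 2. H4K12bu replicate 2 had a peak of 4.17 there and H4K12bu replicate 1 had none. DANCR, an lncRNA that holds back differentiation, carried both marks, with −log10 p of 20.0 and 13.5 for H3K18bu and 7.03 and 6.8 for H4K12bu. Its summits lay at -83 and -87 bp from the start for H3K18bu and at 53 and -9 bp for H4K12bu, negative values lying upstream, so all 4 libraries placed the peak close to the start.

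LINC00460 had one region with H3K18bu alone, with −log10 p of 19.8 and 7.51, which lay wholly upstream, 152 bp from the start. Another region, over the start, passed for H4K12bu alone, with 7.03 and 4.73. In the upstream region H4K12bu replicate 1 also had a peak of 7.96, and in the other H3K18bu replicate 1 had a peak of 8.64, so neither mark was confined to one of the regions. CRNDE, named for its expression in colorectal neoplasia, carried H3K18bu with 10.2 and 13.1 and no H4K12bu peak. It starts near the homeobox gene IRX5, whose start lay 1402 bp from the region. PVT1, the neighbour of the oncogene MYC, carried both marks with 9.47 and 10.4 for H3K18bu and 6.06 and 4.55 for H4K12bu, with summits from -391 to -265 bp of its start. CCAT2, in the same chromosome band, carried H3K18bu alone with 10.5 and 9.4 at 444 bp after its start, within the gene body of POU5F1B.

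CASC15, LINC00511, LINC01133, LUCAT1 and MIR4435-2HG passed the rule for H3K18bu alone, with −log10 p between 5.34 and 10.6. At LINC00511 H4K12bu replicate 1 also had a peak of 6.13. The MIR4435-2HG region was 97 bp wide and lay 723 bp from its start. SLCO4A1-AS1, inside the transporter gene SLCO4A1 on the opposite strand, passed the rule for H4K12bu alone with 7.66 and 4.1, and H3K18bu replicate 1 had a peak of 6.13 there. ZFAS1 had a region that also lay at the coding gene ZNFX1 and was not counted at an lncRNA start. No kept region lay at the starts of BCAR4, CASC8, CASC11, CASC19, FEZF1-AS1, H19, HOTAIR, PCAT1, PRNCR1 and UCA1. Of these, PCAT1 and CASC11 had a single peak each in H4K12bu replicate 2 (−log10 p of 3.77 and 4.18), H19 had one in H3K18bu replicate 1 (5.67), and the other 7 had none in any list. CCAT1 and TUG1 were not found as lncRNA genes of that symbol and were not analysed here.

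**Figure D5:**
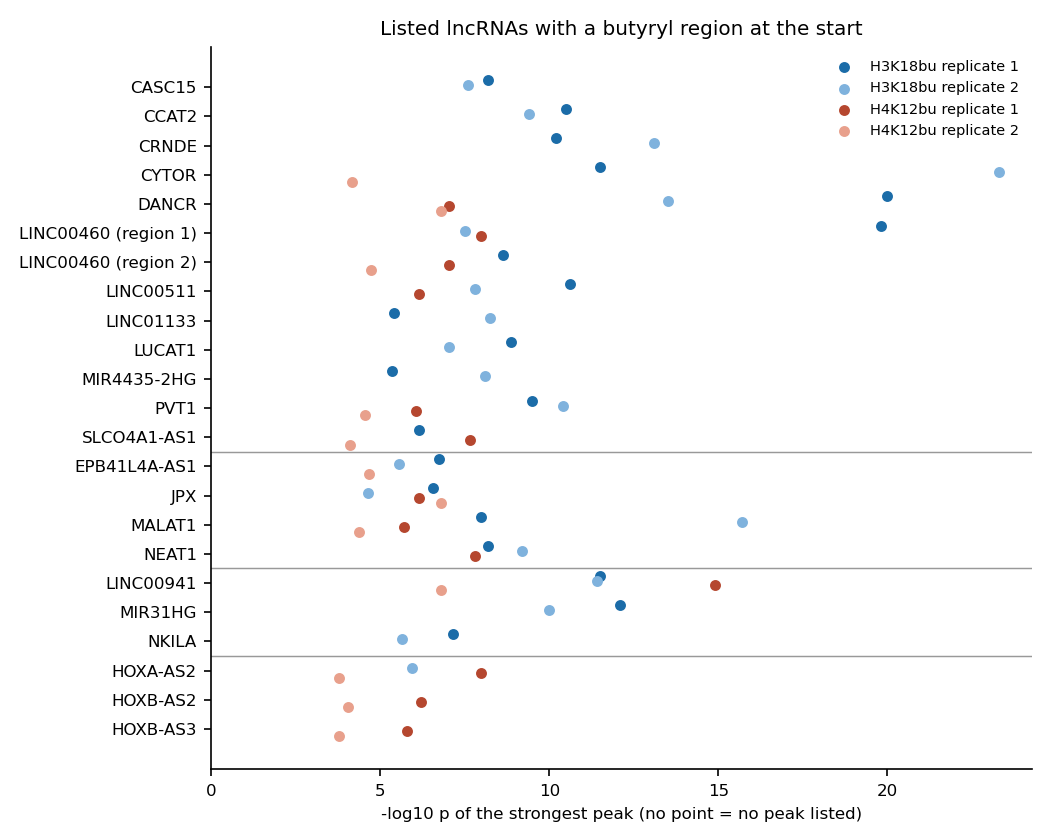
−log10 p of the strongest peak (x axis) in each of the 4 libraries for the regions at the starts of listed lncRNAs (y axis), with lines between the colon cancer, nuclear and housekeeping, epithelial-mesenchymal and signalling, and HOX lists; no point means that no peak was listed. H3K18bu points lie furthest right for CYTOR (23.3), DANCR (20.0) and LINC00460 (19.8), and the HOX lncRNAs have peaks of both H4K12bu replicates.

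Of the 14 nuclear and housekeeping lncRNAs found, 4 had a region (28.6%, beside 17.7% of all lncRNA genes). MALAT1, which gathers in nuclear speckles, carried both marks, with −log10 p of 7.97 and 15.7 for H3K18bu and 5.7 and 4.37 for H4K12bu. The H4K12bu summits at MALAT1 lay at -198 and 6 bp from the start, and the H3K18bu summits at 99 and 125 bp. NEAT1, the scaffold of paraspeckles, carried H3K18bu with 8.17 and 9.2, and a single H4K12bu peak of 7.81 in replicate 1. All 3 NEAT1 summits lay 620 to 631 bp after the start, within the transcript. JPX, an X-linked lncRNA, carried both marks at low height, with 6.54 and 4.64 for H3K18bu and 6.13 and 6.8 for H4K12bu. EPB41L4A-AS1 passed the rule for H3K18bu with 6.73 and 5.55, and H4K12bu replicate 2 had a peak of 4.65. GAS5, LINC-PINT and OIP5-AS1 had regions that also lay at a coding start.

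Of the 18 epithelial-mesenchymal and signalling lncRNAs found, 3 had a region (16.7%, beside 17.7% of all lncRNA genes), and 9 of the 18 start within 2 kb of a coding start. LINC00941, linked to SMAD signalling in colorectal cancer, carried both marks, with −log10 p of 11.5 and 11.4 for H3K18bu and 14.9 and 6.8 for H4K12bu. MIR31HG, the host of the microRNA miR-31, carried H3K18bu alone in a region of 1103 bp, with 12.1 and 9.98. NKILA, an inhibitor of NF-kB signalling, carried H3K18bu alone in a region of 79 bp, with 7.14 and 5.64, 1330 bp from the start of PMEPA1. TGFB2-AS1 shared its region with the start of TGFB2.

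None of the 9 imprinted lncRNAs had a region, beside 17.7% of all lncRNA genes. MEG9 had 1 peak in each H4K12bu replicate (−log10 p of 6.88 and 4.02) that did not merge into one region, MEG3 and H19 had 1 peak each in H3K18bu replicate 1 (6.31 and 5.67), and GNAS-AS1 had 1 in H4K12bu replicate 2 (3.77). The HOX clusters, which encode the factors that pattern the body axis, had 3 of 18 lncRNAs with a region (16.7%, near the 17.7% of all), and 11 of the 18 start within 2 kb of a coding start. HOXA-AS2, HOXB-AS2 and HOXB-AS3 passed the rule for H4K12bu alone, with −log10 p of 7.96 and 3.77, 6.2 and 4.03, and 5.8 and 3.77. In H4K12bu replicate 2 the −log10 q was 1.26 at HOXA-AS2 and HOXB-AS3 and 1.45 at HOXB-AS2. With q below 0.05 only HOXB-AS2 of these would pass the rule. At HOXA-AS2 H3K18bu replicate 2 also had a peak of 5.92. Each of these regions lay inside HOXA3 or HOXB3 on the opposite strand, between 628 and 840 bp from the lncRNA start. The values of 3.77 stand for 5 read ends, the lowest pileup in the list of H4K12bu replicate 2.

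Hosts of snoRNAs and microRNAs had a region at 27 of 113 starts (23.9%), 25 with H3K18bu and 12 with H4K12bu, beside 17.7%, 13.8% and 9.46% of all lncRNA genes, and 12 more had a region that was shared with a coding start. SNHG15, a snoRNA host, carried both marks, with −log10 p of 20.8 and 16.1 for H3K18bu and 7.95 and 5.13 for H4K12bu. Its 4 summits lay 324 to 332 bp after the annotated start, close to each other. SNHG29 carried both marks with 14.3 and 16.1 for H3K18bu and 4.97 and 3.93 for H4K12bu, and SNHG17 carried H3K18bu alone with 11.1 and 10.9, both summits at -19 bp from the start. MIRLET7A1HG, the host of a let-7 microRNA, carried both marks with 12.1 and 12.2 for H3K18bu and 7.03 and 4.73 for H4K12bu. MIR181A2HG had 2 regions. The one at its start passed for H3K18bu alone (6.15 and 5.97, beside 3.05 in H4K12bu replicate 2). The other, 709 bp away, passed for both marks, with 15.9 and 17.5 for H3K18bu and 5.34 and 3.13 for H4K12bu. There the −log10 q of H4K12bu replicate 2 was 0.932, so H4K12bu would not pass with q below 0.05. MIR3976HG carried H4K12bu with 5.28 and 5.74, and neither H3K18bu library listed a peak there.

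The strongest regions were ranked by the lower −log10 p of the replicates that the rule required, and this ranking is a description. With H3K18bu alone, the highest symbols were LINC00474 (25.8 and 25.5 in replicates 1 and 2), FAM86C2P (23.4 and 23.1), ITGB1-DT (23.3 and 22.4), LINC02111 (22.1 and 22.1) and the pair LINC01488 and LINC02747 (21.9 and 24.2), which lies 160033 bp from the start of the cyclin gene CCND1. At LINC00474 H4K12bu replicate 1 also reached 23.6 and replicate 2 listed no peak, so the class of that region rests on the library with the lowest pileups. H4K12bu replicate 1 also had peaks of 7.03 at ITGB1-DT, 6.67 at LINC02111 and 5.58 at the pair LINC01488 and LINC02747. With H4K12bu alone they were CALCRL-AS1 (10.9 and 10.1), CARS1-AS1 (11.7 and 9.6), GTF3C2-AS1 (16.6 and 9.01), FAM95B1 (12.3 and 8.37) and KDM5C-IT1 (11.9 and 8.06), of which CARS1-AS1, GTF3C2-AS1 and KDM5C-IT1 lie inside the coding gene of their name. H3K18bu replicate 2 had peaks of 4.64 at CALCRL-AS1 and 4.64 at FAM95B1, and H3K18bu replicate 1 had a peak of 5.64 at KDM5C-IT1. With both marks they were LNCTSI, LINC00842, LINC03047, VAC14-AS1 and LINC03021. LNCTSI had −log10 p of 24 and 30.3 for H3K18bu and 28.8 and 13.8 for H4K12bu, with its summits from -273 to -258 bp of its start. LINC00842 had 63.6 and 38.9 for H3K18bu and 37.4 and 13.7 for H4K12bu. The edge of that region lay 819 bp from the start, and its 4 summits lay from -1522 to -1386 bp of it, outside the 1 kb window. The summits at LINC00474, 1023 to 1033 bp after its start, and at VAC14-AS1, 1182 to 1185 bp after its start, also lay outside. At CALCRL-AS1 the summit of H4K12bu replicate 1 did so, at -1340 bp.

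By the lower −log10 p of the required replicates, genes without a symbol came first in each group. With H3K18bu alone this was ENSG00000291186 (31.3 and 25.8, beside 7.03 in H4K12bu replicate 1). With both marks it was ENSG00000261978 (20.8, 15.8, 29.7 and 23). With H4K12bu alone it was ENSG00000285628 with ENSG00000290386 (25.2 and 20.4, beside 6.51 in H3K18bu replicate 2). The summit window of this last region has 5 other places in the genome at 95% identity or more, FAM95B1 has 3 and FAM86C2P has 1, with a highest identity of 100.0%, 100.0% and 95.7%. Reads from such copies may be assigned to either place, so these values are uncertain. Among the 74 named regions searched, 5 had another such place.

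The labelled cell type was checked at the start sites of marker genes, where a butyryl region is not a measure of expression. Among the colon epithelial markers 3 of 15 had a kept region, KRT8 and KRT18 with H4K12bu and VIL1 with H3K18bu, and the other 12, among them the adhesion genes EPCAM and CDH1 and the intestinal factors CDX1 and CDX2, had none. Among fibroblast and mesenchymal markers 4 of 16 had one (COL1A2, FN1, TWIST2 and S100A4) and 12 had none, among them VIM, COL1A1, COL3A1, PDGFRA and THY1, and among smooth muscle markers 1 of 5 (ACTA2), beside 34.9% of all protein-coding genes. Each of these lists lay below that share, so the regions bear neither for nor against the epithelial label.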

How the data were processed

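CUT&Tag peak lists of 4 CCD841 libraries were used, and the mouse lists of the series were not used here. Per the paper's methods and the submitters' processing notes (bcl2fastq 2.17.1, cutadapt 1.9.1, Bowtie2 2.3.1, MACS2 2.1.0; GRCh38), the authors called peaks per library without a control, at p under 0.01, kept at most 300000 rows and removed blacklisted regions. The deposited values are a fold ratio over the local background and the −log10 p and −log10 q of each peak. They rank peaks within a library only. The lists hold no read counts and the paper's methods give only an average per sample, so the depth of each library is unknown.

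Rows that overlapped by 1 bp or more were merged. The pileup and background were solved from the deposited fold and −log10 p (within 0.01). Merging, overlaps (against bedtools 2.31.1) and the solver were tested on simulated data. The annotation was GENCODE 44. Copies of summit windows were sought with blastn 2.17.0 (identity of 95% or more over at least 270 bp). The exact test used scipy 1.17.1 and the tables pandas 2.3.3, in Python 3.11.15.

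The members and gene lists were chosen with earlier results of these data known. Text names genes of these lists with a region, the 5 strongest symbols per class of marks, the strongest without a symbol, the 3 widest regions and those at the window's edge. Of the 27 small-RNA hosts with a region, only some are named, and no rule for this was set beforehand. Host genes named by their number of regions, and comments on listed genes without one, were added after their values were seen. The planned share of repeats was not computed, since the reference carries no repeat marking. The immune marker list is not reported here.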

Additional observations from a re-analysis of the deposited data

How the results depend on the processing

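The 15 alternatives gave 125 values for 9 results, of which 48 moved by more than a set limit and 77 did not. The limit was a factor of 1.5 for counts, so that a rise from 3643 to 5417 regions stayed within it, a 95% interval for counting error for the shares, and a change of sign for the difference between libraries. The counts by mark were scored singly, and their order turned round without either H4K12bu library, with 3236 and 2335 regions with H4K12bu alone against 1452 and 1269 with H3K18bu alone. The regions at lncRNA starts numbered 1447 with the 100000 strongest peaks of each list, 7242 with windows of 3 kb and 2041 outside protein-coding gene bodies. In the same order, those with H3K18bu alone numbered 810, 3312 and 1161, those with H4K12bu alone 337, 2158 and 342, those with both marks 300, 1772 and 538, and the lncRNA genes 1483, 5734 and 1937. With q below 0.01 there were 326 with H4K12bu alone and 493 with both marks, and with windows of 500 bp 576 had H4K12bu alone. The share of kept regions at lncRNA starts, 2.27%, was 2.1% with consensus stretches, 2.42% with q below 0.01, 2.62% with the strongest peaks, 1.67% with windows of 500 bp, 4.52% with 3 kb, 2.67% with every transcript start, 2.06% with at least 100 bp of overlap and 1.27% outside coding gene bodies. The share with both marks, 26.8%, was 21.3% with consensus stretches, 22.9% with q below 0.05, 16% with q below 0.01, 20.7% with the strongest peaks and 24.5% with 3 kb.

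Leaving out 1 library in turn gave 5084 to 5985 regions, 1269 to 3546 with H3K18bu alone, 716 to 3236 with H4K12bu alone, 1123 to 1480 with both marks, 4302 to 4977 lncRNA genes, shares of 1.88% to 2.2% of the kept regions and 21% to 29.1% with both marks. The total and the count of the mark of the library left out rise there by construction, since 1 replicate then suffices, and the count with the other mark alone falls. The difference between the marks in the share of each library's regions was 0.314 to 0.668 percentage points, with H3K18bu higher in each alternative in which it was computed. The difference in coding gene bodies, computed after the peaks had been seen, was 31.8 points with the strongest peaks, 31.2 with 3 kb and 15.2 to 26.1 with a library left out. The causes of these changes were not tested. With the replicate number as a replicate block, added after the peaks had been seen, the difference was 0.415 points, from 0.369 in replicate 1 and 0.46 in replicate 2 (exact permutation p = 0.5 within pairs, the smallest that 2 pairs allow). Nothing in the labels says that the numbers mark a shared culture or day. The list of H4K12bu replicate 2 goes down to pileups of 5.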
